A study of Saccharomyces cerevisiae with 13 samples.

Results

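Transcripts that stood high or low in budding yeast (Saccharomyces cerevisiae) 10 min after release from alpha factor were compared with their levels 10 and 20 min later. The comparison used 3 of the 13 arrays of a time course, those at 10, 20 and 30 min, and set the 10 min log2 ratio of each transcript against the mean of the other two. The 0 min array, from the arrested cells themselves, was used to sort the transcripts that differed. Of 6205 open reading frames (ORFs) on the arrays, 5971 had a value at all 3 times. A transcript was called higher at 10 min when its log2 ratio was above both later values and at least 2-fold above their mean, and lower at 10 min in the reverse case. By that rule 117 transcripts were higher, which is 1.96% of those compared, and 70 were lower, which is 1.17%. Among the higher ones, 65 (1.09%) also stood at least 2-fold above 0 min and are called transient below. A further 50 (0.837%) were less than 2-fold above 0 min, where their median was already 1.08 log2, and are called carried over. The name is a label for this rule: 32 of the 50 stood somewhat higher at 10 min than in the arrest, and 18 lower. The other 2 higher transcripts, PMS1 and SUL1, had no usable value at 0 min.

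Per the labels, cells were held with alpha factor and released into YEPD, a rich medium, and samples were taken every 10 min up to 120 min. The time points carried the dye Cy5, and an asynchronous culture grown overnight in the same medium served as the Cy3 reference on every array. Strain, mating type and genotype are not stated in the labels. Each time point has 1 array and each condition is 1 culture, so no difference between single times has a spread between replicates or a test, and a fold of 2 stands in for a call. Each sample is a population, so a change in every cell and a change in the share of cells at one stage cannot be told apart.

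Alpha factor is the mating pheromone that stops MATa cells in G1 at Start, the point of commitment to a new cycle. Once cells pass Start, the transcription factors SBF (Swi4 with Swi6) and MBF (Mbp1 with Swi6) turn on the G1/S genes, which encode cyclins, replication proteins and budding factors. A separate group carries the early cell cycle box, or ECB, in its promoters. It includes the genes for the MCM helicase and is transcribed at the border of M and G1, before Start. Histone genes are transcribed later, in S phase.

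The values are log ratios of a time point to the asynchronous culture, so they compare times for a transcript and not the abundance of different transcripts. The direction of the ratio, time point over reference, is likely rather than stated. The pheromone-induced AGA1, FIG2 and PRM1 stood at 4.88, 4.13 and 4.59 log2 in the arrested sample. The 10 min array had the widest spread of the 13, with an SD of 0.63 log2 against 0.50 at 20 min and 0.45 at 30 min. It also had 107 values at the limit of the scale, 87 of them at the upper end, against 24 and 47 on the next arrays. Such values were treated as missing. The 4 arrays from 0 to 30 min carry 1 file stamp and the 9 later arrays another, and what the stamps record is not stated.

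The number of calls depended on how the arrays were scaled. With all 13 arrays brought to a common distribution by quantile normalization, 30 transcripts were higher and 28 lower, and with arrays scaled to a common median absolute deviation 39 and 29 were. The transient class held 9 and 19 transcripts under these scalings, all of them among the 65. When the values at the limit were kept, 139 transcripts were transient. Some control rows, which name no yeast gene, ran the same way. Of the 12 control rows, 8 had usable values at 10, 20 and 30 min, and 2 of these met the transient rule. The row named E. coli control stood at 1.05, 2.13, 0.38 and 1.05 log2 from 0 to 30 min, and that named Human Control at 0.46, 1.62, 0.43 and 0.69. The row named Phi174 Control was at the upper limit at 10 min and stood at 1.67, 3.34 and 1.51 at 0, 20 and 30 min. What RNA these spots measured is not stated, and the part of this signal in the transient calls was not tested. Over all transcripts compared, the median difference was 0.00 log2 with quartiles of -0.18 and 0.18. At the edge of the higher call, YNL226W and SAM3 lay just inside 2-fold with differences of 1.0 log2 each, and YDL118W and BEM1 just outside with 1.0 and 0.99.

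**Figure D1:**
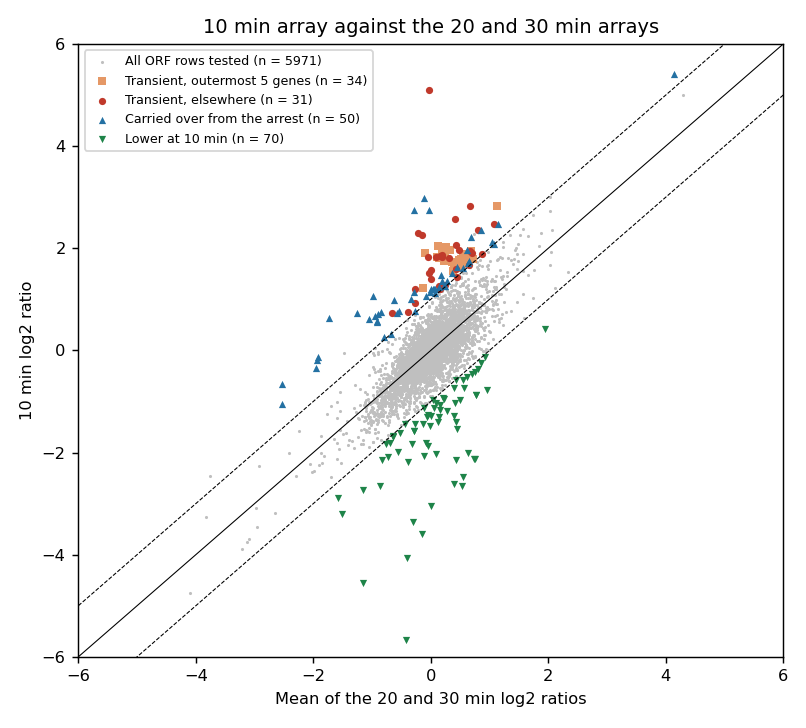
Log2 ratio at 10 min (vertical axis) against the mean of the 20 and 30 min log2 ratios (horizontal axis) for the 5971 ORF rows compared, with 1 point per transcript. Squares and circles are the 65 transient transcripts, split into 34 among the outermost 5 genes of a chromosome end and 31 elsewhere or not placed. Triangles are the 50 carried over and inverted triangles the 70 lower ones, all outside the dashed lines that mark 2-fold.

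The cyclin genes did not move as a block. CLB6, which encodes an S phase cyclin, had the largest excess at 10 min among the 8 G1 and S phase cyclins. Its log2 ratio was -1.32 at 0 min, 2.83 at 10 min, 1.45 at 20 min and -0.12 at 30 min. The 10 min level was thus 17.7-fold above the arrest and 4.47-fold above the mean of the later times, and by 30 min the ratio had returned below that of the asynchronous culture. PCL1, a cyclin of the Pho85 kinase that acts in G1, went from -1.66 to 1.89, 1.10 and 0.62, and was also transient with a difference of 1.02 log2. Quantile normalization left CLB6 with a difference of 1.43 log2 and PCL1 with 0.40, short of 2-fold. CLN1 and CLN2, the classical G1 cyclins of SBF, rose from the arrest by 3.60 and 2.19 log2 and were nearly level between 10 and 20 min before a lower value at 30 min. CLN1 stood at -2.22, 1.38, 1.18 and 0.67 over the 4 times, and CLN2 at -1.51, 0.69, 0.70 and -0.16. Neither was called, with differences of 0.46 and 0.41. CLB5, the partner of CLB6 in starting replication, ran between 0.09 and 0.21 from 0 to 30 min. Its row was nearly flat on all 13 arrays, between -0.07 and 0.32, so the lack of a rise is not particular to these times. CLN3, the upstream activator of Start, was highest in the arrest at 0.91 and stood at 0.12, -0.76 and -0.56 afterwards. PCL2 had its highest value, 2.16, at 0 min and stood at 0.36 at 10 min. PCL9, a cyclin of early G1, lay between -1.39 and -1.91 at all 4 times. Of the 8 cyclins, 2 were transient and none was lower, where 1.09% and 1.17% of all transcripts were. The list's median difference was 0.44 log2.

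The regulators of G1/S transcription were divided in the same way. MSA2, a partner of SBF and MBF, stood at -0.52, 2.57, 1.05 and -0.24 from 0 to 30 min, which is 8.52-fold above the arrest at its peak and 4.48-fold above the mean of the later times. YOX1, a homeodomain repressor of ECB genes, stood at -1.10, 2.47, 1.24 and 0.89. SWI4, the DNA-binding subunit of SBF, stood at -0.11, 1.91, 1.16 and 0.23. All 3 were transient, with differences of 2.16, 1.40 and 1.21 log2. Of the 3, only MSA2 kept a 2-fold excess under quantile normalization (1.34 log2), where YOX1 and SWI4 had 0.72 and 0.56. MSA1, the relative of MSA2, differed from it in the arrest: it stood at 0.39 at 0 min, 0.99 at 10 min and then -0.73 and -0.51, and was carried over. Others in this list were not called. TOS4, a target of SBF, was highest at 20 min with 1.61, and so was PLM2 with 0.77. NRM1, the corepressor that closes the MBF programme, climbed from -1.34 through -0.39 and 0.33 to 0.54. The ECB repressor YHP1 stood at -1.18, -1.27 and -0.01 from 10 to 30 min. HCM1, a forkhead factor of S phase, was level at 0.34 and 0.38 over 10 and 20 min and stood at -0.04 at 30 min. The remaining members, MBP1, SWI6, STB1, TOS8 and WHI5, differed by between -0.67 and 0.25 log2. In all, 4 of the 14 were higher and none lower, where 1.96% and 1.17% of all transcripts were. The list's median difference was -0.21 log2, or 0.09 with 30 min alone as the later time.

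Other transient transcripts were in other lists or in none. ACM1, an inhibitor of the anaphase-promoting complex with Cdh1, stood at -0.82, 2.36, 1.40 and 0.20. HLR1 stood at -0.01, 1.82, 0.46 and -0.29. KCC4, a kinase bound to the septins at the bud neck, stood at -0.66, 2.07, 1.02 and -0.14. SPT21, needed for normal histone gene transcription, stood at -1.65, 1.28, 0.76 and -0.29, and BNI4, which anchors chitin synthesis at the neck, at -0.64, 1.21, 0.62 and -0.29. CDC6, the factor that loads the MCM helicase on origins, had a shorter rise: -1.03, 0.73, -0.80 and -0.51. SPT21, BNI4 and CDC6 were named after their values were seen. Under quantile normalization ACM1, HLR1, KCC4, SPT21 and BNI4 fell short of a 2-fold excess over the later times, and CDC6 kept it with 1.01 log2. With arrays scaled to a common median absolute deviation, HLR1 and KCC4 kept it with 1.12 and 1.02 log2. CDC6 then fell short with 0.97, as did ACM1, SPT21 and BNI4. EXO1, a repair exonuclease, was at -0.27, 0.92, 0.53 and -1.05, so its level held at 20 min and dropped between 20 and 30 min. The mismatch repair gene PMS1 followed the same course from 10 min on, with 1.28, 0.84 and -0.61. Neither EXO1 nor PMS1 kept a 2-fold excess under quantile normalization (0.85 and 0.70 log2).

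How steeply the transient transcripts came down varied. Of the 65, 36 had dropped by at least 2-fold between 10 and 20 min, and 57 were lower at 30 than at 20 min. For 23, the 20 min value was still closer to that of 10 min than of 30 min. CLB6 lost 1.37 log2 in the first step and 1.57 in the second, and MSA2 lost 1.52 and 1.29. The median steps over the 65 were -1.12 and -0.74 log2. The remaining 8 of the 65 were higher at 30 than at 20 min, among them YNL226W with -0.22 and then 1.11. PDR18, which encodes an ABC transporter, was similar: it stood at 0.67, 2.29, -1.07 and 0.62.

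**Figure D2:**
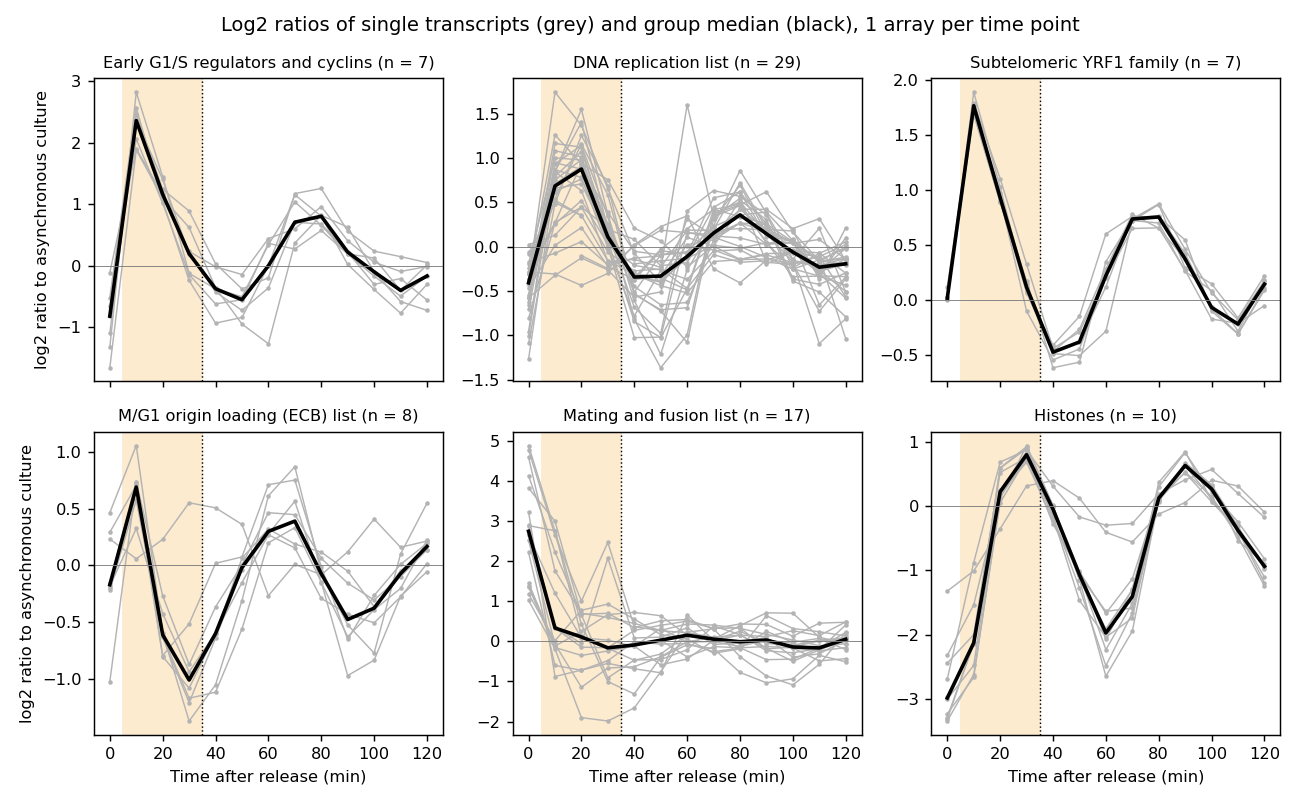
Log2 ratio to the asynchronous culture (vertical axis) over 0 to 120 min after release (horizontal axis) for single transcripts (grey) and the median of each group (black), with 1 array per time point, 10 to 30 min shaded and a dotted line between the file stamps. The 7 regulators and cyclins (CLB6, MSA2, YOX1, SWI4, PCL1, ACM1, KCC4) were picked after their values were seen; they and the YRF1 copies are highest at 10 min, the replication genes stay up at 20 min, and the histones are highest at 30 min.

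Replication genes formed a plateau over 10 and 20 min instead of a peak at 10 min. No gene of the DNA replication list was called in either direction (0 of 27 compared), nor any of 8 genes of deoxynucleotide synthesis or 9 of sister chromatid cohesion. Over all transcripts 1.96% were higher and 1.17% lower, so the absence of calls in lists of this size does not set these genes apart. Medians of the replication list were -0.41 at 0 min, 0.69 at 10 min, 0.88 at 20 min and 0.11 at 30 min. For 22 of the 27 replication genes with all 4 values, both 10 and 20 min exceeded both 0 and 30 min. Among all transcripts this pattern was seen for 17.1%. Cohesion genes showed it in 7 of 9 cases, deoxynucleotide genes in 5 of 8 and repair and recombination genes in 9 of 12. POL1, the catalytic subunit of DNA polymerase alpha, stood at -1.01, 0.85, 1.55 and 0.36. RNR1, the large subunit of ribonucleotide reductase, stood at -1.60, 1.27, 1.35 and -0.10. MCD1, the cleavable subunit of cohesin, came nearest to a call in its list, with -1.92, 1.51, 1.19 and 0.00. CDC45, a part of the replicative helicase, had the highest 10 min value of the replication list, 1.74, and stood at 1.37 at 20 min and 0.66 at 30 min. The sign of these lists' median difference turned on the later time used. It was 0.15 log2 for replication against both times, 0.56 against 30 min alone and -0.16 against 20 min alone. For cohesion it was 0.16, 0.41 and -0.02, and for deoxynucleotide synthesis -0.10, 0.07 and -0.16.

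**Figure D3:**
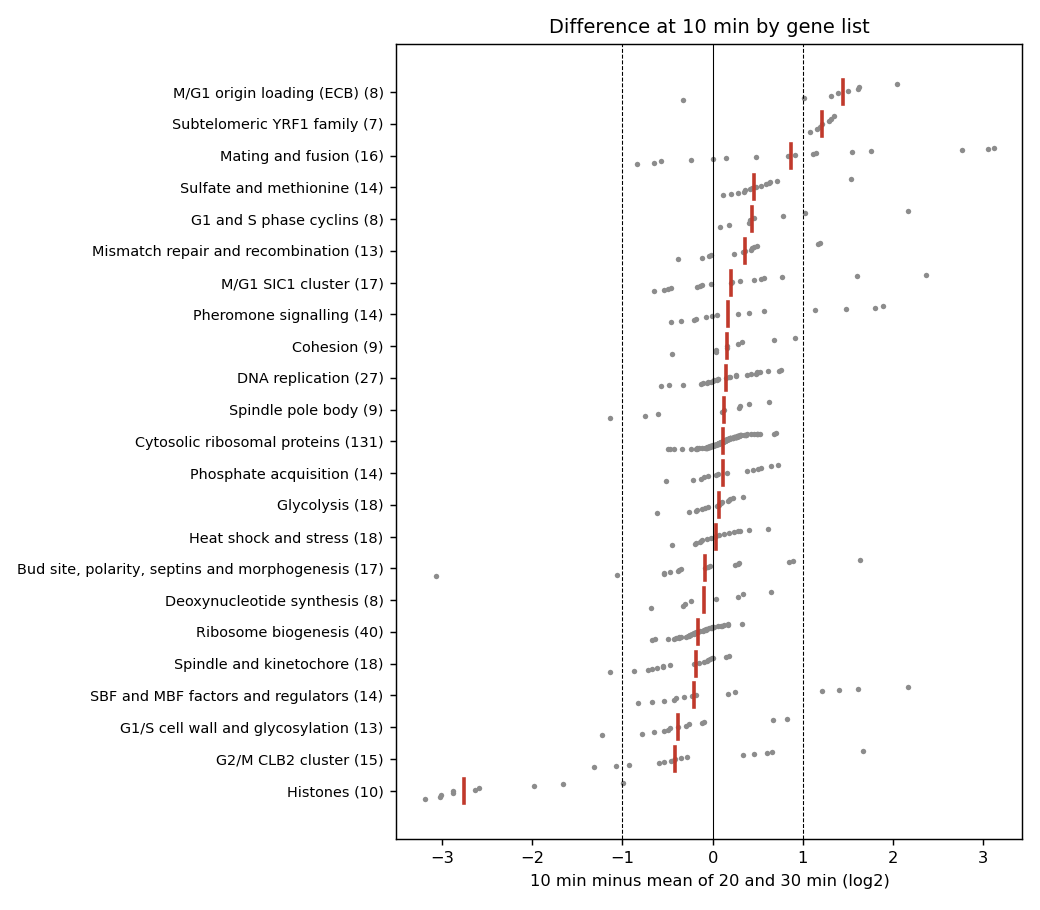
Difference between the 10 min log2 ratio and the mean of the 20 and 30 min log2 ratios (horizontal axis) for the members of 23 gene lists (vertical axis, number compared in parentheses), with 1 grey point per gene and a red bar at the list's median. The ECB origin loading list and the YRF1 family lie highest with medians of 1.44 and 1.21, and the histones lowest with -2.75; dashed lines mark 2-fold.

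The larger part of the transient class lay at the ends of chromosomes. Of the 65 transcripts, 34 (52.3%) belong to the outermost 5 protein-coding genes of a chromosome end by the order in the RefSeq table. Such genes are 133 of the 5971 compared, or 2.23%, and 34 of the 133 (25.6%) were transient. None of the 50 carried over and none of the 70 lower transcripts was placed there. All 7 copies of YRF1, the gene for a helicase encoded in the subtelomeric Y' repeats, were transient. Their log2 ratios lay between 0.00 and 0.11 at 0 min, 1.69 and 1.89 at 10 min, 0.89 and 1.10 at 20 min, and -0.10 and 0.32 at 30 min. YRF1-7 had the largest difference of the 7, 1.34 log2, and YRF1-6 the smallest, 1.08. Genes of such repeats are near-identical, so their spots may share signal and the 34 transcripts are not separate measurements. How far the spots share signal was not tested. Only 9 of the 34 have a standard gene name, among them AYT1, an acetyltransferase gene, and SEO1, which encodes a permease. SEO1 was already up in the arrest, at 1.62, and went to 2.82, 1.39 and 0.86. Under quantile normalization none of the 4 YRF1 copies with the largest differences kept a 2-fold excess over the later times. Without the 34 end genes, 31 transient transcripts are left. The RefSeq table lists 58 of the 65 transient, 49 of the 50 carried over and 66 of the 70 lower ORFs, and 5503 of the 5971 compared. ORFs that it does not list could not be placed and were counted as elsewhere, so the 31 may hold further genes of chromosome ends.

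Another part of the calls rested on the 10 min array alone. At 10 min 33 ORFs were at least 2-fold off while every other array lay within 0.5 log2 of 0, a count that was 33 at 60 min and between 0 and 19 on the other 11 arrays. The limit of 0.5 was set after the data were seen. Of these 33, 9 were transient, 3 carried over and 11 lower. BET5, which encodes a subunit of the TRAPP vesicle-tethering complex, had the largest excess of all transcripts, with 0.18, 5.10, -0.04 and -0.03 over the 4 times. SNC1, a vesicle SNARE of the plasma membrane, stood at 0.30, 2.27, -0.13 and -0.17. AIM26 was at 1.82 and CWC15, a splicing factor, at 1.51 on the 10 min array, and the 3 neighbouring arrays were near 0 for both. BET5, SNC1 and AIM26 kept a 2-fold excess under quantile normalization, and CWC15 did not. On the lower side YPT32, a Rab GTPase of the secretory pathway, stood at -0.34, -3.59, 0.04 and -0.35, and VAC7, a regulator of vacuole size, at 0.17, -1.87, 0.07 and -0.17. With 1 array per time, a brief change and a fault of a spot cannot be told apart for these transcripts. Left out, they lower the transient count from 65 to 56 and the lower count from 70 to 59.

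Transcripts carried over from the arrest fell after 10 min, between G1 arrest levels and S phase. Of the 50, 42 had dropped by at least 2-fold by 20 min. In the ECB list 7 of 8 genes were higher at 10 min, where 1.96% of all transcripts were. The list's median difference was 1.44 log2 against 0.00 for all transcripts. The 7 are CDC6 and the 6 genes of the MCM helicase, MCM2 to MCM7. MCM5 stood at 0.47, 1.06, -0.60 and -1.37 from 0 to 30 min, a 4.13-fold excess at 10 min over the later mean. MCM7 was at -0.20, 0.68, -0.80 and -1.08, MCM3 at 0.29, 0.71, -0.62 and -1.17, and MCM4 at -0.22, 0.58, -0.64 and -1.21. For MCM5, MCM7, MCM3 and MCM4, 10 min was the highest of the 4 times and 30 min the lowest. The eighth ECB gene, TAH11, whose product brings MCM to origins, stood at 0.23, 0.06, 0.23 and 0.55.

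Of the 16 mating genes compared, 7 were carried over, where 0.837% of all transcripts were. These 7 differed in how much excess was left at 10 min. AGA2, a subunit of a-agglutinin, stood at 3.82, 2.99, 0.66 and -0.91. MFA1, which encodes the a-factor pheromone, stood at 2.88, 2.76, 0.42 and -1.0, and AGA1, the anchor of a-agglutinin, at 4.88, 2.74, 0.13 and -0.17. The a-factor exporter gene STE6 was already below the asynchronous culture at 10 min and fell further, with 1.02, -0.19, -1.90 and -1.99. FIG2, PRM1 and PRM3 were the others. Genes that were not called include FUS1 and KAR5, both low from 10 min on: FUS1, needed for cell fusion, stood at 3.23 at 0 min and -0.88 at 10 min, and KAR5, needed for nuclear fusion, at 2.22 and -0.60. In pheromone signalling, the receptor gene STE2 stood at 1.40, -0.65, -2.20 and -2.86 and the G protein alpha subunit gene GPA1 at 1.28, -0.13, -1.55 and -2.31. BAR1, the protease that destroys alpha factor, stood at 2.39, -1.05, -2.16 and -2.90, and ASG7 at 3.39, 1.20, -0.04 and 0.18. These 4 of 14 met the carried over rule, although STE2, GPA1 and BAR1 had dropped below the asynchronous culture by 10 min and fell further after it. The MAP kinase gene FUS3 stood at 1.40 and then -1.19, -0.99 and -1.0, and the Cdk inhibitor gene FAR1 at 1.71, -2.01, -2.65 and -2.17. Neither was called. For 11 of the 50 carried over transcripts, the 0 min value exceeded the 10 min value by at least 2-fold, so that 10 min was a point on a fall that had begun earlier. The mating list's median difference was 0.87 log2, and 0.41 under quantile normalization.

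Among genes of mitotic exit and early G1, 2 of 17 in the M/G1 SIC1 cluster and 1 of 15 in the G2/M CLB2 cluster were carried over. Over all transcripts the share was 0.837%. The median differences of these lists were 0.21 and -0.42 log2, and 2 genes of the CLB2 cluster were lower. With 20 min alone as the later time, the CLB2 cluster's median was 0.11 log2. HSP150, a secreted cell wall protein, stood at 0.11, 0.64, -1.28 and -2.18, with a difference of 2.37 log2. ASH1, the daughter-specific repressor of HO, stood at -0.65, -0.35, -1.84 and -2.07. DBF2, a kinase of mitotic exit, stood at 0.68, 0.61, -1.19 and -0.92. UTH1, TAF2, HST4, DCD1, NCA3 and SAP1 had the largest differences among carried over transcripts with a standard name and in no list, from 1.98 for UTH1 to 1.34 log2 for DCD1. HST4, a histone deacetylase of the sirtuin family, stood at 0.20, 0.75, -0.67 and -1.03. TAF2, a subunit of the general factor TFIID, was as high in the arrest as at 10 min, at 0.58 and 0.56. SAP1 came back at 30 min, with 3.68, 2.36, -0.11 and 1.82.

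**Figure D4:**
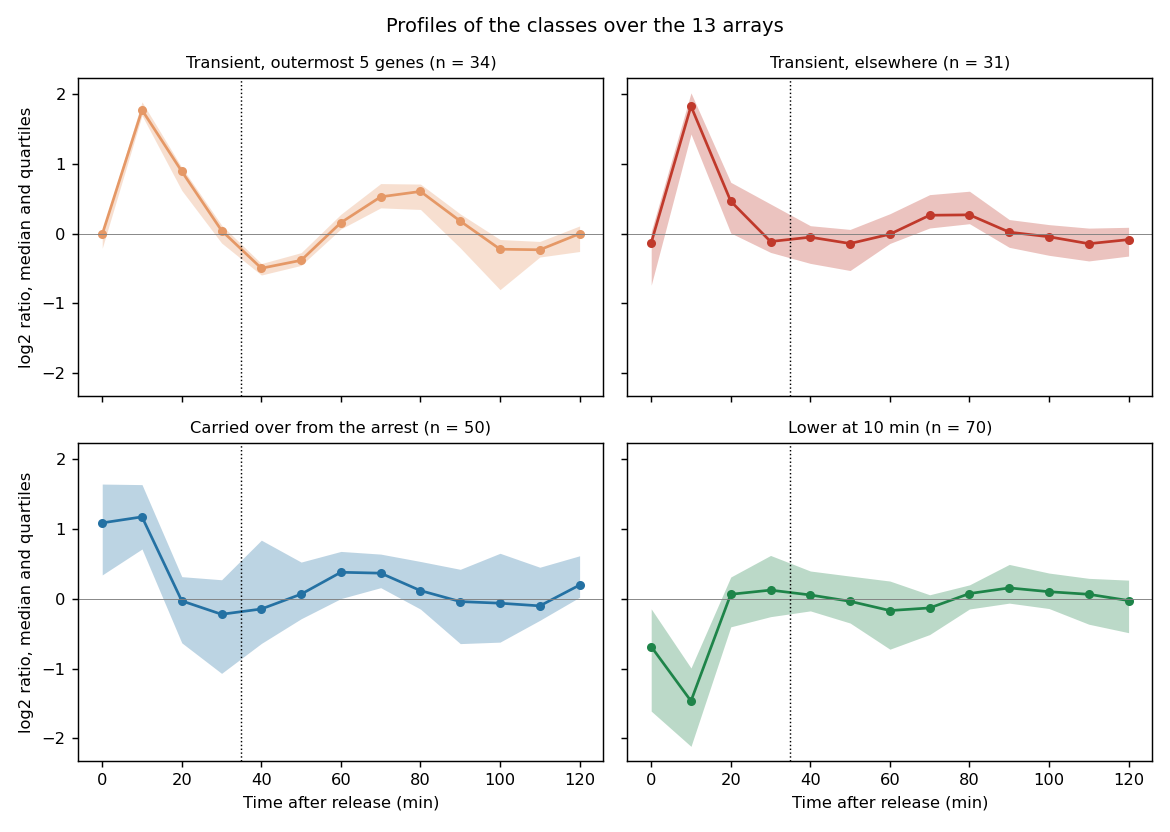
Median log2 ratio (line) and quartiles (shading) over 0 to 120 min after release for the transient transcripts at chromosome ends (34), the other transient ones (31), those carried over (50) and those lower at 10 min (70), with a dotted line between the file stamps. The values at 10, 20 and 30 min chose the classes; the chromosome end group has a second maximum of 0.60 at 80 min, and the median of the carried over group is 1.08 at 0 min and 1.17 at 10 min.

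Among transcripts lower at 10 min, most of the listed genes encode histones. They made up 9 of the 70, and the list's median difference was -2.75 log2, or -1.86 under quantile normalization. HTA2, one of the genes for H2A, stood at -3.23, -2.66, 0.11 and 0.94 from 0 to 30 min, a 9.12-fold deficit at 10 min. HTA1 stood at -3.34, -2.62, 0.05 and 0.74, HTB1 (H2B) at -3.0, -2.48, 0.25 and 0.84, and HHF2 (H4) at -3.29, -2.12, 0.59 and 0.92. Each of these genes gained between 2.67 and 2.78 log2 between 10 and 20 min, and less than 1 log2 before and after except for HHF2, which gained 1.17 before. Genes for the same histone are similar in sequence, so their spots may share signal. The linker histone gene HHO1 was earlier, at -2.69, -0.88, 0.68 and 0.87. The variant gene HTZ1 (H2A.Z) missed the call with -0.99, at -1.32, -1.01, -0.36 and 0.31. Single genes of spindle, budding and cell wall lists were lower too, where 1.17% of all transcripts were. They were 1 of 9 spindle pole body genes and 1 of 18 spindle and kinetochore genes. In the budding and septin list 2 of 17 were lower (with 1 higher), and in the cell wall list 1 of 13. The median differences of these lists were 0.13, -0.18, -0.09 and -0.38 log2. SPC98, a part of the gamma-tubulin complex, stood at -1.02, -0.59, 0.50 and 0.60, and STU2, a microtubule polymerase, at -1.57, -0.74, 0.16 and 0.62. HSL1, the septin-bound checkpoint kinase, peaked at 20 min with 1.32. GAS3, a cell wall gene, stood at -1.18, -1.07, -0.18 and 0.50, and CIS3, which encodes a wall mannoprotein, at -2.0, -1.41, 0.27 and 0.59.

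For 25 of the 70, by contrast, the log2 ratio dropped by at least 2-fold between 0 and 10 min and came back. They include transcripts that were off on the 10 min array alone, such as YPT32 and VAC7. For those, and for the dips of IRC8, HOB2 and BUD3 given next, a brief change and a fault of a spot cannot be told apart. IRC8 had the deepest dip, at -0.78, -5.67, -0.70 and -0.14. HOB2 stood at 0.11, -4.06, 0.12 and -0.91, and BUD3, a landmark of axial budding, at -0.79, -3.36, -0.70 and 0.11. ATG40, a receptor for autophagy of the endoplasmic reticulum, stood at -0.58, -2.03, -0.19 and 0.37. IQG1, a scaffold of the cytokinesis ring, stood at 0.49, -1.84, -1.10 and -0.44. For another 34, 10 min was within 2-fold of the arrest, and 8 had already gained 2-fold by then. The polo kinase gene CDC5 belongs to the 34, at -1.34, -2.14, -1.45 and -0.21. ADA2, a subunit of the SAGA coactivator, was low in the arrest as well, at -2.22, -3.05, 0.06 and -0.04. LPX2 had no value at 0 min and stood at -2.08, 0.04 and -0.28 afterwards. The remaining 2 without a 0 min value were INP54 and ATG17.

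The later arrays, which played no part in choosing these transcripts, allowed a test. A cosine and sine with a period of 60 min were fitted to the 9 arrays from 40 to 120 min with limma, since the design places 2 cycles in 120 min, and p-values were adjusted by Benjamini-Hochberg over 6196 ORFs. At an adjusted p under 0.05, 294 ORFs (4.74%) were periodic. Of the 65 transient transcripts 41 were, or 63.1%, with 27 of the 34 placed at chromosome ends and 14 of the other 31. Their fitted peaks had a circular mean of 15.4 min in the 60 min cycle with an SD of 2.38 min, so the second maximum came between the 70 and 80 min arrays. The end genes, which are not separate measurements, were periodic in 79.4% of cases, with a mean peak at 14.9 min and an SD of 1.56 min. For the others these were 45.2%, 16.5 min and 3.22 min. Of the carried over transcripts 18 of 50 (36.0%) were periodic, with a mean peak at 6.13 min, and of the lower ones 22 of 70 (31.4%), with a mean peak at 36.7 min. These counts rested on a few arrays. Without the 80 min array 108 ORFs were periodic, 20 of them transient, and with a period of 55 min only 60 and 5. The error in this fit is the residual around the curve, which holds misfit as well as measurement error.

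CLB6 had a fitted peak-to-trough size of 1.29 ± 0.21 log2 (SE, 9 arrays; adjusted p = 0.0137 by limma) with its peak at 15.7 min, against 4.15 log2 for its rise after release. MSA2 had 1.93 ± 0.21 (adjusted p = 0.0029) and a peak at 15.8 min. YOX1 and SWI4 had sizes of 1.45 ± 0.23 and 0.99 ± 0.15, with peaks at 19.5 and 17.8 min. PCL1 peaked later, at 23.5 min, close to CLN1 at 21.5 and CLN2 at 23.4 min. ACM1, KCC4, SPT21 and BNI4 were periodic as well, with adjusted p-values from limma of 0.0143, 0.029, 0.0451 and 0.00744. EXO1 was not (adjusted p = 0.179 by limma), and CDC6 missed the threshold (0.0575). All 7 YRF1 copies were periodic, with a mean peak at 16.2 min. BET5, SNC1, AIM26, CWC15 and PDR18 were not, with adjusted p-values between 0.523 and 0.956. Among carried over transcripts, MCM2, MCM3, MCM4, MCM5 and MCM6 were periodic and MCM7 was not (adjusted p = 0.0713 by limma). HSP150, ASH1 and BAR1 had the largest sizes of those named in this class, 3.08 ± 0.34, 2.94 ± 0.35 and 2.72 ± 0.28 log2. AGA2 and AGA1 were not periodic (adjusted p = 0.0512 and 0.115 by limma). All 10 histone genes were periodic, HTA2 with 2.57 ± 0.44 log2 and a list mean peak at 32.5 min.

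The same contrast set 1 nominal cycle later, 70 min against 80 and 90 min, gave fewer calls. Over all transcripts 32 of 6184 (0.517%) were higher at 70 min by the same rule and 19 (0.307%) were lower. Of the 65 transient transcripts, 1 was higher, YBR071W, and none lower. Counting direction alone, 70 min was above both later times for 31 of the 65, or 47.7%, against 35.4% of all transcripts. CLB6 stood at 1.04, 0.66 and 0.19 on the 70, 80 and 90 min arrays and MSA2 at 1.16, 0.81 and 0.02, whereas SWI4 was highest at 80 min with 0.96. The YRF1 copies were level over 70 and 80 min, with medians of 0.74 and 0.75. Of the carried over transcripts 33 of 49 (67.3%) were above both later times, and 8 were at least 2-fold higher. The 8 include HSP150 at 1.25, 0.39 and -0.75, ASH1 at 1.57, 0.36 and -0.73, MCM5 at 0.87, -0.06 and -0.52 and MSA1 at 0.90, 0.15 and -0.70. Of the lower transcripts, 41 of 69 (59.4%) were below both later times, against 30.5% of all, and 11 were at least 2-fold lower. HTA2 stood at -1.95, 0.09 and 0.63 there. IRC8, at 0.12, 0.12 and -0.07, and HOB2, at 0.18, 0.45 and 0.32, had no dip at 70 min that matched the one at 10 min.

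**Figure D5:**
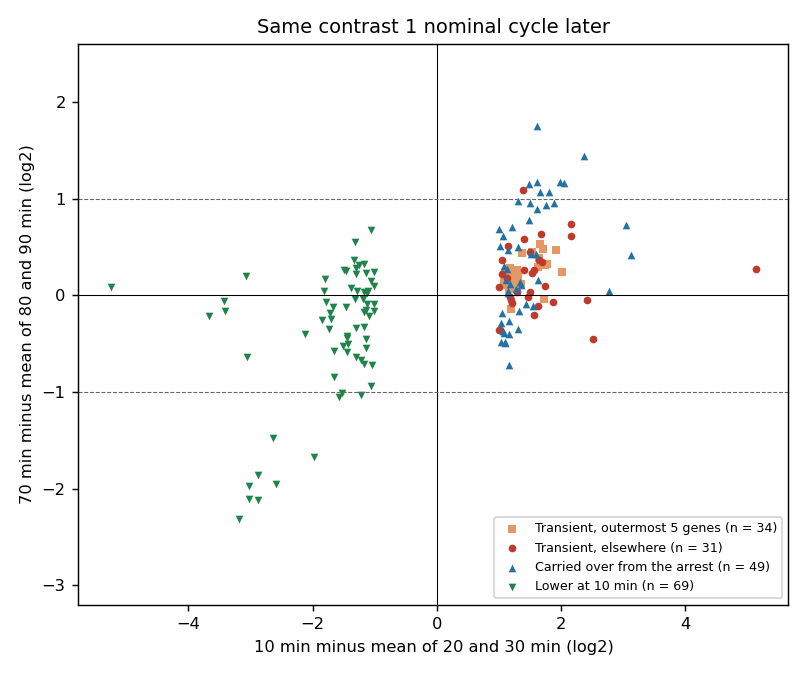
Difference of 70 min from the mean of 80 and 90 min (vertical axis, log2) against the difference of 10 min from the mean of 20 and 30 min (horizontal axis, log2) for transient, carried over and lower transcripts with both values, with 1 point each. The horizontal values chose the classes; on the vertical axis 8 histone genes and GAS3, TOS6 and FRE4 lie below -1, most transient transcripts lie within 1 log2 of 0, and 8 carried over transcripts lie above 1 (dashed line).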

How the data were processed

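Transcript levels were measured on 13 2-colour arrays, 1 per time point, so the number of arrays limits the precision. The deposited values are log10 ratios. Their base was read from their ends at 2 and -2, and the scanner, background correction, normalization and spot averaging are not stated in the labels. Values of size 1.99 or more were treated as missing, and the rest were multiplied by 3.32 to give log2. The 12 control rows were kept out of the counts and fits. Names and gene order came from the RefSeq table of assembly R64, which lists 5704 of the 6205 ORFs (5170 with a standard name); the other 501 keep their ID. No coordinates are printed.

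The 10 min contrast has no test. Periodicity was tested with limma 3.58.1 in R 4.3.3 on rows with at least 8 of 9 values, after a check on simulated data. Other steps used Python 3.11.15, NumPy 2.4.6, pandas 2.3.3 and matplotlib 3.10.9. Alternatives changed the limit, the scaling, the fold, the rows, the later array used, the period and the fit.

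The members and the 23 gene lists were chosen with earlier results of these data known. The text names all cyclins and G1/S regulators of 2 lists, up to 4 called genes of each other list, the 8 largest transient, 6 carried over and 8 lower named genes in no list, and 2 genes on each side of 2-fold. Other named genes were chosen after their values were seen. Promoter motifs were planned and not run, because no promoter sequences were used here.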

Additional observations from a re-analysis of the deposited data

Results flagged for a closer look

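Of the transcripts named by rule, 7 were called one way at 10 min and went the opposite way at the matching time 1 nominal cycle later, where the 70 min value lay on the other side of both 80 and 90 min. Each is a comparison of single arrays, and the difference between the cycles was not tested. Higher at 10 min but lowest of the later 3 at 70 min were PCL1, whose 70 min value was -0.35 log2 from the mean of 80 and 90 min, PDR18 with -0.45, SNC1 with -0.0489 and NCA3 with -0.0929. Lower at 10 min but highest of the later 3 at 70 min were CDC5 with 0.55, IQG1 with 0.68 and VAC7 with 0.0432. For SNC1, NCA3 and VAC7 all arrays except that at 10 min lay within 0.5 log2 of 0.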

How the results depend on the processing

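No paired analysis was possible because each time point has 1 array. Counts of higher, lower, transient and carried over transcripts were 117, 70, 65 and 50. They moved to 30, 28, 9 and 21 under quantile normalization and to 39, 29, 19 and 20 with arrays scaled to one median absolute deviation. With a fold of 1.5 they were 307, 292, 168 and 136, and with 3-fold 36, 26, 20 and 16. Keeping values at the limit gave 201 higher and 139 transient, and rows with a standard name alone 69 and 31. Without the 20 or the 30 min array the counts ranged from 91 to 157, 74 to 119, 37 to 86 and 53 to 69. Without the genes placed at chromosome ends, an alternative added after seeing the data, 31 transient ones were left. At 70 min, 32 higher and 19 lower became 50 and 32 under quantile normalization, 88 and 96 at 1.5-fold, 8 and 9 at 3-fold, and 17 to 56 and 24 to 36 without the 80 or 90 min array. Periodic counts of 294, and of 41 transient and 22 lower, became 60, 5 and 2 at a period of 55 min, and ranged from 108 to 315, 20 to 45 and 9 to 25 without 1 array. List medians under quantile normalization and under the scaling were -1.86 and -1.87 for histones, 0.41 and 0.48 for mating, 0.0672 and 0.0216 for ribosome biogenesis (-0.16 as reported), and 0.0248 and 0.162 for sulfate and methionine (0.46). Without the 20 or 30 min array the medians ranged from -0.36 to -0.20 for spindle and kinetochore, 0.49 to 1.07 for mating and -0.68 to 0.11 for the CLB2 cluster (-0.42). For the 82 genes named by rule, 492 values were obtained under alternatives, and no difference of a called gene changed sign. For called genes most of this was fixed by the rule, which sets 10 min beyond both later times. Leaving out the 20 or the 30 min array, or keeping values at the limit, could not turn their sign. Sign changes of genes that were not called were not counted. CLN2 is a case: it stood at 0.69 at 10 min and 0.70 at 20 min, so its difference turned negative without the 30 min array. The cause of these shifts was not tested.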

Other observations

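Sulfate and methionine genes were raised in the arrest and at 10 min. Their list median was 1.14 log2 at 0 min, 1.77 at 10 min, 1.03 at 20 min and 1.17 at 30 min, and all 14 compared had a positive difference at 10 min. Of these only SUL1, a sulfate permease gene, was called, at 2.27, 0.65 and 0.83 from 10 to 30 min. Over all transcripts 1.96% were higher. MET2, for homoserine acetylation, stood at 0.87, 1.68, 0.81 and 1.12. The median difference of 0.46 log2 was 0.02 under quantile normalization.

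Ribosome biogenesis genes were low over the same times, with medians of -0.26, -1.03, -0.83 and -0.79 from 0 to 30 min. None of the 40 was called, where 1.96% of all transcripts were higher and 1.17% lower. The sign of their median difference, -0.16 log2, turned under quantile normalization (0.07). In the M/G1 SIC1 cluster, DSE2 and AMN1 were low from 10 to 30 min and were not called. DSE2, which encodes a glucanase of cell separation, stood at -4.75, -4.41 and -3.77. AMN1, which blocks mitotic exit, stood at -3.46, -2.81 and -3.12 after 0.62 at 0 min. They do not stand for the list of 17, whose medians were -0.86, -1.73 and -1.80. In it 9 genes had a positive difference at 10 min and 2, HSP150 and ASH1, were carried over.

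A set of 6 ORFs without a standard name (YMR050C, YML045W, YAR009C, YMR045C, YBL005W-B and YER160C) had a course of its own, with a correlation to YMR050C of at least 0.9 over the 13 arrays. It was picked after the values were seen. Its medians were 1.12 and 1.28 at 0 and 10 min, 0.20 and 0.30 at 20 and 30 min, 1.41 at 40 min and 1.23 at 90 min, and 5 of the 6 were carried over. Spots of such ORFs may share signal, which was not tested.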
